A study of Mus musculus with 27 samples.

Results

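The genes examined here digest dietary sugars at the surface of the small intestine, carry the products across the epithelium and begin their metabolism. The set holds 9 genes chosen by name (*Slc5a1*, *Slc2a2*, *Slc2a5*, *Sis*, *Mgam*, *Lct*, *Treh*, *Khk* and *G6pc*) of 46078 in the count tables, and all 9 passed the filter on low counts that left 16741 genes for testing. RNA-Seq was performed on epithelium scraped from the distal ileum of 27 male C57BL/6 mice (postnatal day 56 in the labels). The mice had been gavaged every 4 d for 28 d with sesame oil vehicle, which all 9 groups received, alone or carrying 1 of 8 doses of TCDD between 0.01 and 30 µg/kg, with 3 mice in each group. TCDD is a persistent dioxin that activates the aryl hydrocarbon receptor (AhR), a ligand-activated transcription factor, and the design asks how ileal expression changed with dose.

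Starch and disaccharides are cut to single sugars by enzymes anchored in the brush border, the microvillus surface of the absorptive enterocytes. Glucose and galactose are then pulled into the cell with sodium by SGLT1 (*Slc5a1*), fructose enters through GLUT5 (*Slc2a5*), and GLUT2 (*Slc2a2*) passes sugars on to the blood. Inside the cell, ketohexokinase (*Khk*) commits fructose to breakdown, while the catalytic subunit of the glucose phosphatase (*G6pc*) releases free glucose. These functions are known to be strongest in the jejunum and weaker in the ileum, and several of the genes are known to follow feeding and time of day.

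The bases just upstream of the start site are shown for *Slc2a2*, *Slc5a1*, *Sis* and *Mgam*, which were higher at the top dose than in vehicle mice. They are also shown for *Lct*, whose level varied widely between mice of the same group. They are the 250 bases before the start in the RefSeq promoter table (GRCm38.p6), written 5′ to 3′ on the strand of the gene. Capitals mark matches, on either strand, to GCGTG (the AhR core motif), GATAA (GATA factors), GTTAAT (HNF1), TTTAT (CDX factors) or CACGTG (the E-box), which were searched over the 300 bases that also include 50 after the start.
*Slc2a2*, chr3:28697653-28697902, plus strand: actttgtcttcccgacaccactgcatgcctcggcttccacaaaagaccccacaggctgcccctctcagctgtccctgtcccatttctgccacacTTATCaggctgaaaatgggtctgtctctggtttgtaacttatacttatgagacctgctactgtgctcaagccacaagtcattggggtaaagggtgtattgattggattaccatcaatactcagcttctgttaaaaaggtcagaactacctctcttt
*Slc5a1*, chr5:33103969-33104218, plus strand: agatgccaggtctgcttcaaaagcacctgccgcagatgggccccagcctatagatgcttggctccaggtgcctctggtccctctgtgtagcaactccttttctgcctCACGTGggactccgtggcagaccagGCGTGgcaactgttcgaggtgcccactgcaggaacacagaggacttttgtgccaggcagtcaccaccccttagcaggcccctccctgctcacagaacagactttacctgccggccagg
*Sis*, chr3:72967864-72968113, minus strand: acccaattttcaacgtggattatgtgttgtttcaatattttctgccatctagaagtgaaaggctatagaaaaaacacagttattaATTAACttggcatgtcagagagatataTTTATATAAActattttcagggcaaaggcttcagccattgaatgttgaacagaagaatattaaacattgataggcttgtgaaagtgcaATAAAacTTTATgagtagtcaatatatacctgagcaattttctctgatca
*Mgam*, chr6:40628581-40628830, plus strand: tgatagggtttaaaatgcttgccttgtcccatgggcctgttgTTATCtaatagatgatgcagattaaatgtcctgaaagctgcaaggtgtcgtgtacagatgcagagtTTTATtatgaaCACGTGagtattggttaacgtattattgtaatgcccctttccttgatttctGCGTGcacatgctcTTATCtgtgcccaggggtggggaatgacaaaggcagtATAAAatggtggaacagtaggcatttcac
*Lct*, chr1:128328319-128328568, minus strand: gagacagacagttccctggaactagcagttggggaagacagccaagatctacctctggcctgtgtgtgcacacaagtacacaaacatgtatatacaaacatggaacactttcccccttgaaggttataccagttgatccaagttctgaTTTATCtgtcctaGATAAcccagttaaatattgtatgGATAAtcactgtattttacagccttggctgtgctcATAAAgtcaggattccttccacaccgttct
*Slc2a2* held 1 match, to GATAA read from the other strand at position -156 from the start. *Slc5a1* held CACGTG at -143 and GCGTG at -118. *Sis* held 4 matches to TTTAT, of which those at -138 and -133 adjoin, and 1 to GTTAAT. *Mgam* held GCGTG at -80 and CACGTG at -131, with further matches to GATAA and TTTAT. *Lct* held 3 matches to GATAA, of which the one at -101 overlaps a match to TTTAT. Over the 9 genes, GCGTG was present in 2 windows, GATAA in 3, GTTAAT in 3, TTTAT in 4 and CACGTG in 3. The same letters occurred in 32.4%, 25.4%, 7.1%, 40.0% and 7.15% of all 32851 windows of the table, respectively. No match to any of the 5 was present in the windows of *Slc2a5* and *Treh*, and a match is a description of the letters, not of binding.

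The libraries held 12.26 to 17.14 M reads counted on genes (median 14.14 M). *Cyp1a1*, the standard AhR target gene, rose from 0 to 0.211 CPM in the 3 vehicle mice to 1062 to 2279 CPM at 30 µg/kg. CPM is the count divided by the TMM-adjusted library size in M reads. The enterocyte marker *Vil1* reached 2295 to 3873 CPM in all 27 mice, and no marker of the distal ileum list was at 0 in all of them. Levels above 0 do not show the position along the intestine, and markers of position are given below. Libraries that stood apart bear on the results below. At 30 µg/kg, mouse 65 had 8883 CPM summed over 8 enterocyte markers against 26220 and 19170 in mice 67 and 68, and 345 CPM summed over 6 smooth muscle markers against 78.6 and 36.2. The clock output gene *Dbp* lay at 0.346 to 4.94 CPM in 14 of the 15 mice from vehicle to 0.3 µg/kg but at 27.6 CPM in mouse 14 (0.01 µg/kg), and at 18.2 to 55.8 CPM in all mice from 1 µg/kg up. The library indexes in the file names were used once in the 15 mice from vehicle to 0.3 µg/kg and in mouse 41 (1 µg/kg), and again in the other 11 mice. Both uses are found within the 1 µg/kg group alone, so a difference between vehicle and 3, 10 or 30 µg/kg cannot be told apart from one of index use, whereas groups of the same use can be compared. In scraped tissue, a lower level can mean fewer cells of a type or less RNA per cell, which cannot be told apart.

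At 30 µg/kg, 7 of the 9 sugar genes were called as higher than in vehicle mice. A call needed an adjusted p no greater than 0.05 and a change no smaller than 1.5-fold (edgeR quasi-likelihood test, Benjamini-Hochberg adjustment). The difference was 28.7-fold for *Slc2a2*, 10.8-fold for *Slc2a5*, 4.77-fold for *G6pc*, 2.64-fold for *Sis*, 2.33-fold for *Slc5a1*, 1.7-fold for *Mgam* and 1.67-fold for *Khk*. The intervals of *Lct* (2.67-fold) and *Treh* (1.75-fold) were too wide for a call, and 0 members were lower. Of all genes tested, 9.4% were called at this dose, 5.42% as higher and 3.98% as lower, and the median log2 fold change was 1.4 over the members and 0.02 over all genes. Without mouse 65, 8 members were called, beside 14.7% of all genes. Leaving out mouse 67 instead kept 4 of them (*Slc2a2*, *Slc5a1*, *Slc2a5* and *Sis*), beside 5.15% of all genes. With the index use as a covariate 3 remained (*Slc2a2*, *Slc2a5* and *Sis*), beside 2.88% of all genes, and with the clock score described below as a covariate 0 remained, beside 0.0836% of all genes. The index use term can be estimated in the 1 µg/kg group alone, from mouse 41 against mice 43 and 44. Fits with this term, here and below, therefore rest on mouse 41 and do not separate index use from dose.

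**Figure D1:**
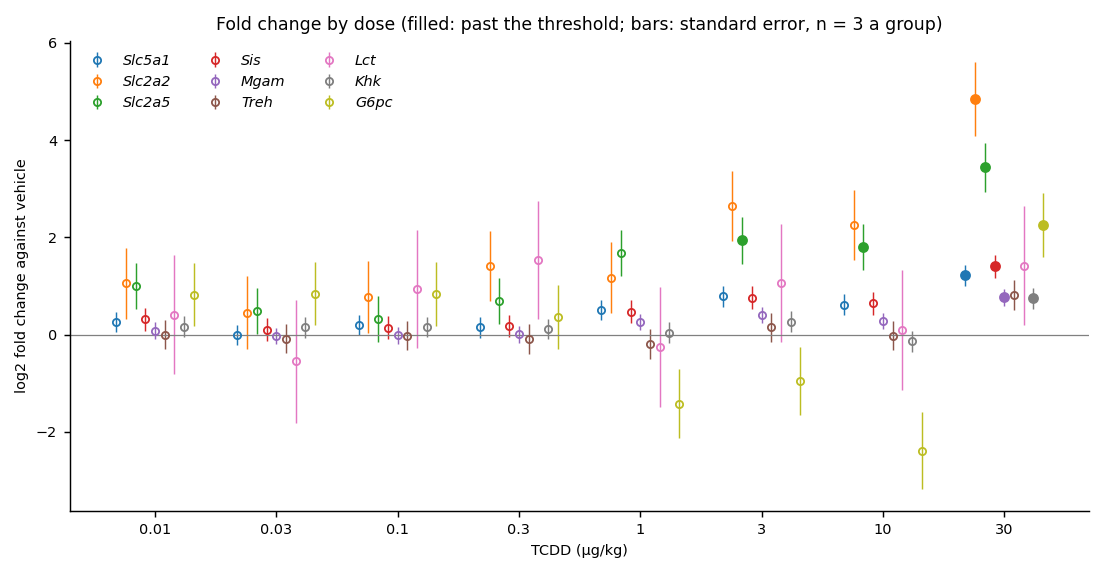
Log2 fold change against vehicle (vertical axis) of the 9 sugar genes at each TCDD dose (horizontal axis, µg/kg), 3 mice a group, with standard errors as bars and filled points for changes past the threshold. *Slc2a5* is filled at 3, 10 and 30 µg/kg, 7 genes are filled at 30 µg/kg, and *G6pc* lies below 0 from 1 to 10 µg/kg and above it at 30 µg/kg.

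At lower doses fewer members were called. *Slc2a5* was the 1 member past the threshold at 3 µg/kg, where 1.11% of all genes were called, and again at 10 µg/kg, where 2.53% were. The count was 0 at 1 µg/kg (0.591% of all genes called), although 2 members, *Slc5a1* and *Slc2a5*, had an unadjusted p under 0.05 and DESeq2 called *Slc2a5*. For the doses of 0.01, 0.03, 0.1 and 0.3 µg/kg edgeR called 0% of genes and 0 members. Of all genes, 699, 591, 1037 and 1247 had an unadjusted p under 0.05 at these doses, among them 1, 0, 0 and 0 members. DESeq2 also called 0 members at each of the 4 doses, and 3, 0, 4 and 20 genes in all.

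*Slc2a2*, the transporter that passes glucose, galactose and fructose toward the blood, showed the largest change of the 9 at 30 µg/kg. Its level was 5.56, 13.2 and 6.58 CPM in the 3 vehicle mice and 79.0, 415 and 231 CPM in mice 65, 67 and 68 at 30 µg/kg. At 3 µg/kg the values were 34.0, 44.4 and 78.6 CPM, and at 10 µg/kg they were 23.4, 40.3 and 55.9 CPM. All 9 mice from 3 µg/kg up therefore lay above all vehicle mice. The lowest mouse at 30 µg/kg, mouse 65, exceeded the highest at 10 µg/kg but was level with the highest at 3 µg/kg (79.0 against 78.6 CPM). The log2 fold change was 4.84 ± 0.76 (SE; edgeR, adjusted p = 0.00014) at 30 µg/kg. At 3 and 10 µg/kg it was 2.64 ± 0.72 (SE) and 2.24 ± 0.72 (SE), with adjusted p of 0.0635 and 0.0866, and neither passed. Below 1 µg/kg single mice were high, with 48.7 CPM in 1 mouse at 0.3 µg/kg beside 4.08 and 14.4 CPM in the others. The gene lies on chromosome 3 of GRCm38, 28697903 to 28731359, plus strand.

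*Slc2a5*, the fructose transporter of the brush border, was the member whose calls began at the lowest dose, 3 µg/kg. The vehicle mice held 28.1, 28.0 and 23.7 CPM. Those given 3 µg/kg held 108, 100 and 97.5 CPM and those given 10 µg/kg 80.5, 82.9 and 115 CPM, a narrow range well above vehicle. The values at 30 µg/kg were 92.0, 478 and 296 CPM, so that mouse 65 stayed at the level of the 2 doses before while mice 67 and 68 rose further. The log2 fold changes were 1.94 ± 0.48 (SE; adjusted p = 0.037), 1.8 ± 0.48 (SE; adjusted p = 0.0335) and 3.44 ± 0.5 (SE; edgeR, adjusted p = 6.06e-05). The call at 3 µg/kg was lost without any 1 of the 6 mice compared, at log2 fold changes of 1.87 to 1.98, and that at 10 µg/kg without any but mouse 58. At 1 µg/kg the mice held 118, 39.9 and 95.5 CPM, all above vehicle, with a log2 fold change of 1.67 ± 0.47 (SE; edgeR, adjusted p = 0.0955) that did not pass. *Slc2a5* lies on chromosome 4, 150119283 to 150144169, plus strand.

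*Slc5a1*, which takes up glucose and galactose with sodium, was far more abundant and moved less. Vehicle mice held 1322, 1481 and 1457 CPM. The 1 µg/kg mice held 2150, 2060 and 1856 CPM, the 3 µg/kg mice 2317, 2551 and 2463 CPM, and the 10 µg/kg mice 1854, 2209 and 2458 CPM. Mouse 65 at 30 µg/kg held 1741 CPM, below all mice at 1 to 10 µg/kg, and mice 67 and 68 held 4359 and 3811 CPM. All 12 mice from 1 µg/kg up were above the vehicle mice. So were the 3 mice at 0.01 µg/kg (1510, 1543 and 2053 CPM) and the 3 at 0.1 µg/kg (1813, 1494 and 1579 CPM), where the gene was not called. The log2 fold change was 1.22 ± 0.21 (SE; edgeR, adjusted p = 0.000406) at 30 µg/kg, and 0.78 ± 0.21 (SE; adjusted p = 0.0575) at 3 µg/kg, which missed the threshold. *Slc5a1* lies on chromosome 5, 33104219 to 33162870, plus strand.

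**Figure D2:**
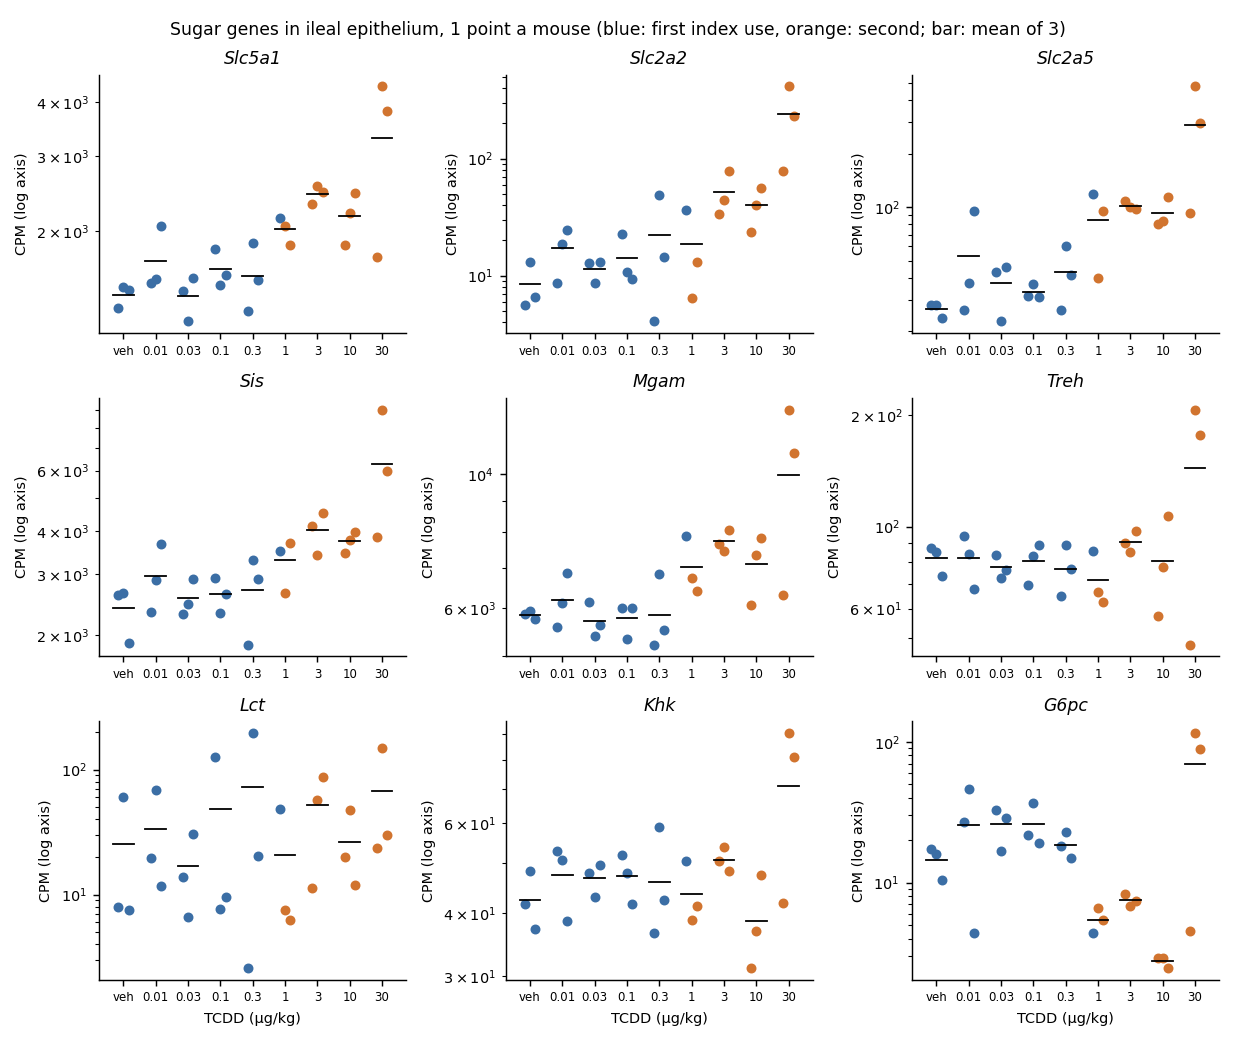
Level of each sugar gene in CPM (vertical axes, log scale) against TCDD dose (horizontal axes, µg/kg), with 1 point a mouse, coloured by use of the library index, and a bar at the mean of 3 mice. For most genes 2 of the 3 mice at 30 µg/kg stand above all others and mouse 65 lies near the 3 and 10 µg/kg mice, while *Lct* spreads from 2.59 to 196 CPM with no order by dose.

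Among the brush border enzymes, sucrase-isomaltase (*Sis*), which splits sucrose and the branch points of starch, showed the largest change among those called. Vehicle mice held 2608, 2655 and 1894 CPM, and mice 65, 67 and 68 held 3860, 9023 and 5999 CPM. The 3 µg/kg mice (4155, 3411 and 4521 CPM) and the 10 µg/kg mice (3461, 3764 and 3988 CPM) also lay above every vehicle mouse. The log2 fold change was 1.4 ± 0.24 (SE; edgeR, adjusted p = 0.000341) at 30 µg/kg, 0.76 ± 0.24 (SE; adjusted p = 0.117) at 3 µg/kg and 0.65 ± 0.24 (SE; adjusted p = 0.137) at 10 µg/kg. The gene lies on chromosome 3, 72888557 to 72967863, minus strand, and 0.13% of its 50-base stretches recur in other genes.

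Maltase-glucoamylase (*Mgam*), which frees glucose from the ends of starch chains, had the steadiest vehicle level at 5861, 5937 and 5761 CPM. The mice at 3 µg/kg held 7662, 7467 and 8079 CPM, and those at 30 µg/kg held 6308, 12750 and 10800 CPM. Even mouse 65 lay above the vehicle mice, and the log2 fold change at 30 µg/kg was 0.77 ± 0.17 (SE; edgeR, adjusted p = 0.00301). The call was lost without mouse 67. *Mgam* lies on chromosome 6, 40628831 to 40769123, plus strand, and shares 0.29% of its 50-base stretches with *Mgam2-ps*.

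Trehalase (*Treh*), which splits the fungal and insect sugar trehalose, was not called at any dose. Vehicle mice held 87.6, 85.2 and 73.5 CPM. Mouse 65 at 30 µg/kg was the lowest of all 27 mice at 47.9 CPM, and mice 67 and 68 were the highest at 207 and 177 CPM. The groups overlapped, and the log2 fold change of 0.81 ± 0.3 (SE; edgeR, adjusted p = 0.0647) did not pass. Without mouse 65 it was 1.2 and passed (adjusted p = 5.79e-05, edgeR), where the adjusted p ranged up to 0.412 over the 6 fits that each left out 1 mouse. Exons of *Treh* (chromosome 9, 44673233 to 44686305, plus strand) overlap *Phldb1* on the other strand, which held 24.1 to 44.2 CPM at 30 µg/kg, and 1.45% of its 50-base stretches recur in *Gm47238*.

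Lactase (*Lct*), the milk sugar enzyme that declines at weaning, varied 75.6-fold among the 27 mice without regard to dose. The vehicle mice held 7.96, 60.3 and 7.47 CPM, compared with 2.59, 196 and 20.2 CPM at 0.3 µg/kg and 23.4, 148 and 30.1 CPM at 30 µg/kg. The 6 highest mice came from 6 different groups, and the log2 fold change of 1.42 at 30 µg/kg had a standard error of 1.22 (adjusted p = 0.462, edgeR). The transcription factor *Gata4*, which marks the proximal small intestine, was high in the same animals. Of the 6 mice with the most *Lct*, 5 were among the 6 with the most *Gata4*. The 3 highest *Lct* levels (196, 148 and 127 CPM, in mice 35, 67 and 26) came with 39.2, 26.8 and 40.2 CPM of *Gata4*, against 3.11 to 17.0 CPM in vehicle mice. Whether the site of the scraping differed between mice was not tested. *Lct* lies on chromosome 1, 128284756 to 128328318, minus strand.

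Ketohexokinase (*Khk*), the first enzyme of fructose breakdown, was called at the top dose alone. Vehicle mice held 41.5, 48.3 and 37.2 CPM, and at 30 µg/kg mouse 65 held 41.8 CPM, within the vehicle range, beside 90.2 and 80.8 CPM in mice 67 and 68. No mouse at 0.01 to 10 µg/kg exceeded 58.9 CPM. The log2 fold change at 30 µg/kg was 0.74 ± 0.21 (SE; edgeR, adjusted p = 0.0173), and leaving out mouse 67, mouse 68 or either of the vehicle mice 2 and 4 ended the call. *Khk* lies on chromosome 5, 30921431 to 30931248, plus strand.

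*G6pc*, whose product frees glucose from its phosphate, was the member with levels on both sides of vehicle. Vehicle mice held 17.3, 15.8 and 10.4 CPM. The 3 mice at 0.1 µg/kg all lay above them, with 21.9, 36.7 and 19.2 CPM, while those at 0.01 µg/kg held 26.7, 45.9 and 4.4 CPM and those at 0.03 µg/kg 32.6, 16.7 and 28.7 CPM. Levels of 4.39, 6.6 and 5.38 CPM at 1 µg/kg were lower in every mouse. The same held for 8.33, 6.79 and 7.37 CPM in the 3 µg/kg mice and for 2.9, 2.9 and 2.47 CPM in the 10 µg/kg mice. No mouse of these 3 groups reached the lowest vehicle mouse (per group, exact permutation test, two-sided, p = 0.1, the smallest that 3 mice against 3 allow). The log2 fold changes of -1.42, -0.95 and -2.39 (standard errors 0.72, 0.7 and 0.79) did not pass the adjusted threshold, with adjusted p of 0.376, 0.6 and 0.0963 by edgeR, while DESeq2 called *G6pc* at 10 µg/kg. Mouse 65 at 30 µg/kg stayed low at 4.51 CPM whereas mice 67 and 68 reached 115 and 88.5 CPM, the highest of all 27. The log2 fold change of 2.25 ± 0.66 (SE; edgeR, adjusted p = 0.0197) at 30 µg/kg thus rests on those 2 mice. Leaving out mouse 67, mouse 68 or vehicle mouse 4 ended the call. *G6pc* lies on chromosome 11, 101367561 to 101377903, plus strand.

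The comparison of 30 with 3 µg/kg stays within the second use of the library indexes. *G6pc* was the 1 member past the threshold, 9.24-fold higher at 30 µg/kg (log2 difference 3.21 ± 0.7 (SE), edgeR, adjusted p = 0.021), and 0.89% of all genes were called. *Slc2a2* was 4.61-fold higher (adjusted p = 0.0949) and *Slc2a5* 2.84-fold higher (adjusted p = 0.109), and both missed it. Without mouse 65, 7 members were called (all but *Mgam* and *Lct*), beside 4.07% of all genes. Without any 1 of the other 5 mice, the count was 0.

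A test for any difference among the 9 groups called 6 members (*Slc2a2*, *Slc5a1*, *Slc2a5*, *Sis*, *Mgam* and *G6pc*), where 9.53% of all genes were called. A linear trend over the 9 dose ranks called 5, the same members without *G6pc*, where 25.7% of all genes were called. The slope per dose step on the log2 scale was 0.46 for *Slc2a2* ± 0.07 (SE), 0.34 for *Slc2a5* ± 0.04 (SE), 0.14 for *Sis* ± 0.02 (SE), 0.13 for *Slc5a1* ± 0.02 (SE) and 0.08 for *Mgam* ± 0.01 (SE). The slope of *G6pc* was -0.11 ± 0.06 (SE; edgeR, adjusted p = 0.227). Within the 16 mice of the first index use the trend called 0 members and 0% of genes, with slopes of 0.34 for *Slc2a2* and 0.27 for *Slc2a5*. Within the 11 mice of the second use it called *Slc2a2*, at 1.34 per step, beside 1.29% of all genes, and without mouse 65 it called 8 of 9 (all but *Lct*), beside 5.55%. In that fit *G6pc* had a slope of 1.08, opposite in sign to that over all mice.

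Counted by mouse, 5 members at 3 µg/kg lay above all vehicle mice and *G6pc* lay below, 6 of 9 in all, where 24.5% of all genes had groups that did not overlap. At 10 µg/kg the same count was 6 of 9, where 23.2% of all genes did not overlap. The top dose had 5 of 9, all above, where 27.1% of all genes did not overlap. The 5 were *Slc2a2*, *Slc5a1*, *Slc2a5*, *Sis* and *Mgam* at each dose, and *Khk*, *Treh*, *Lct* and *G6pc* overlapped at 30 µg/kg in that mouse 65 lay within or below the vehicle range and *Lct* spread widely. Set relative to the mean of the 8 enterocyte markers in the same mouse, 4, 6 and 6 members did not overlap at 3, 10 and 30 µg/kg, where 43.8%, 15.2% and 7.68% of all genes did not, and *Khk* joined the 5 at the top dose. The relative log2 difference at 30 µg/kg was 4.52 for *Slc2a2*, 3.04 for *Slc2a5*, 1.23 for *Sis*, 1.01 for *Slc5a1* and 0.61 for *Mgam*. Of the 8 enterocyte markers themselves, 0 were called by edgeR at 30 µg/kg, beside 9.4% of all genes, with a median log2 fold change of 0.2. That median covers mice that differed in both directions. The summed markers were 15230 to 15560 CPM in vehicle mice and 8883, 26220 and 19170 CPM in mice 65, 67 and 68. Without mouse 65 the median was 0.53, with 0 called beside 14.7% of all genes.

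Several sugar genes moved with clock genes. The clock score, the mean log2 CPM of *Arntl*, *Npas2* and *Clock* minus that of *Dbp*, *Nr1d1* and *Per3*, was 2.06 to 5.27 in 14 of the 15 mice from vehicle to 0.3 µg/kg and -1.42 to 0.64 in the 12 mice from 1 µg/kg up. Mouse 14, at 0.01 µg/kg, had a score of -0.35 and 0 counts of *Cyp1a1*. Among the 15 mice from vehicle to 0.3 µg/kg it ranked highest for *Slc2a5* (95.6 CPM, others 22.8 to 60.7), *Slc5a1* (2053 CPM, others 1233 to 1876), *Sis* (3669 CPM, others 1873 to 3299) and *Mgam* (6868 CPM, others 5226 to 6836). It ranked lowest for *G6pc* (4.4 CPM, others 10.4 to 45.9) and second for *Slc2a2* (24.7 CPM, others 4.08 to 48.7). For the other members its rank from the highest was 9 for *Lct*, 13 for *Khk* (38.5 CPM) and 14 for *Treh* (67.75 CPM). Its *Slc2a5* and *G6pc* levels were those of mice at 1 to 10 µg/kg. Mouse 41, the 1 mouse at 1 µg/kg from the first index use, had a score of -1.12 and more *Slc2a5* (118 CPM) and *Slc2a2* (36.5 CPM) than the other 2 mice of its dose. With the score as a covariate the log2 fold change at 30 µg/kg was 1.75 for *Slc2a2*, 0.85 for *Slc2a5* and 5.02 for *G6pc*, and at 3 and 10 µg/kg *Slc2a2*, *Slc2a5* and *Sis* turned to the other side of 0. The score changed between 0.3 and 1 µg/kg. At 1 µg/kg *Slc5a1*, *Slc2a5*, *Sis* and *Mgam* lay above all vehicle mice and *G6pc* lay below. *Slc2a2*, *Khk*, *Lct* and *Treh* overlapped the vehicle mice at that dose. Dose and clock state cannot be told apart across that step. The scores at 30 µg/kg (-1.36 to -0.77) lay within those at 3 and 10 µg/kg (-1.42 to -0.34), and mice 67 and 68 held more of each member but *Lct* than any mouse at 3 or 10 µg/kg. Mouse 65, with a score of -1.24, held levels within or below those of the 3 and 10 µg/kg mice for each member but *Slc2a2*. The cause of this split between mice was not tested.

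**Figure D3:**
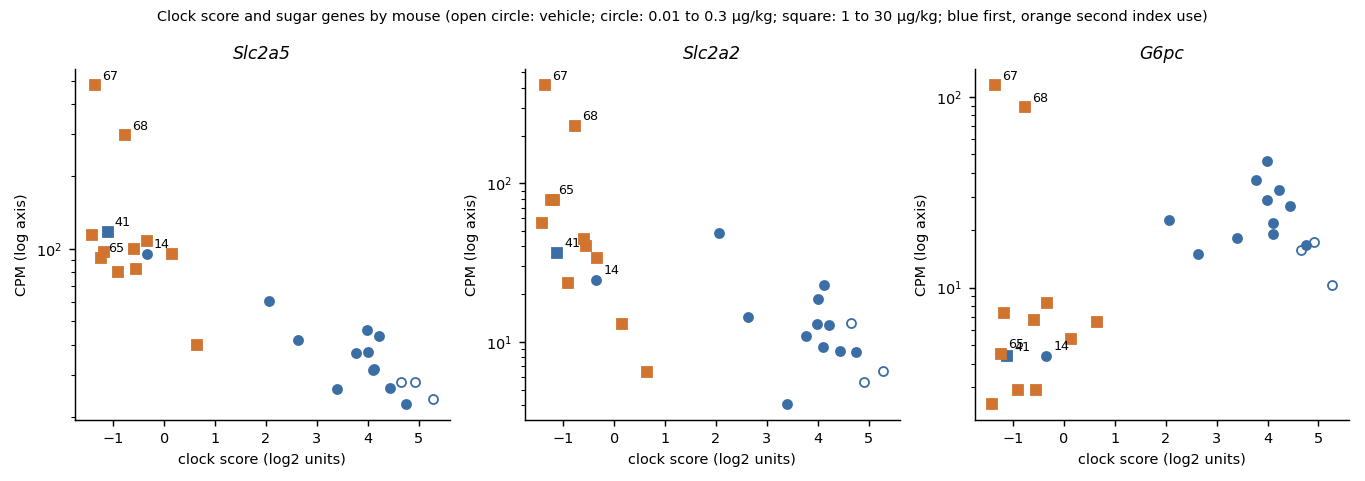
Level of *Slc2a5*, *Slc2a2* and *G6pc* in CPM (vertical axes, log scale) against the clock score in log2 units (horizontal axes), with 1 point a mouse, open for vehicle, circles up to 0.3 µg/kg and squares from 1 µg/kg, coloured by library index use. Mouse 14 (0.01 µg/kg, score -0.35) sits among the squares, and mice 67 and 68 (30 µg/kg) stand above all other mice at the same scores.

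Some markers of position along the intestine differed in the same 2 mice. The bile acid binding protein *Fabp6*, a marker of the distal ileum, was 1490 to 1810 CPM in vehicle mice and 1492 CPM in mouse 65, but 680 and 474 CPM in mice 67 and 68. The summed level of 6 proximal markers was 2531 to 3244 CPM in vehicle mice and 1440, 5230 and 4278 CPM in mice 65, 67 and 68, with 1 of 6 called at 30 µg/kg (*Fabp1*) and 3 of 6 without mouse 65. Most of this sum is *Apoa1*, with means of 2627 and 3300 CPM in the vehicle and 30 µg/kg groups, which did not pass. Nor did *Onecut2* (log2 fold change -0.13) or *Gata4*, at 8.09, 26.8 and 7.73 CPM in mice 65, 67 and 68. The summed level of 6 distal markers was 4155 to 5492 CPM in vehicle mice and 4894 to 7186 CPM at 30 µg/kg, with 2 called as higher (*Slc10a2* and *Cubn*) and 2 as lower (*Fabp6* and *Fgf15*). Markers of other cell types differed at the top dose too. The sum of 6 stem and dividing cell markers was 417 to 594 CPM in vehicle mice, 474 CPM in mouse 65 and 218 and 272 CPM in mice 67 and 68, with 2 of 6 called as lower, or 4 without mouse 65. Enteroendocrine markers summed to 88.4 to 103.6 CPM in the vehicle group and 186 to 207 CPM at 30 µg/kg, with 4 of 5 called as higher. B and plasma cell markers summed to 223 to 367 CPM and 75.7 to 146 CPM, respectively, with 2 of 5 called as lower. No marker of these 3 lists was at 0 in all 27 mice. Of all genes tested, 5.42% were called as higher and 3.98% as lower at 30 µg/kg, and 14.7% either way without mouse 65. The part of all these markers in the changes of the sugar genes was not tested.

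Per kilobase of exon, *Mgam* was the most abundant of the 9 in vehicle mice at 672 ± 10.2 CPM per kb (SD, n = 3), followed by *Slc5a1* at 346 ± 20.8 and *Sis* at 320 ± 57.1, whose ranges overlapped. *Treh* (40.1 ± 3.68) and *Khk* (23.6 ± 3.12 CPM per kb) came next, each clear of its neighbours. The lowest 4 were *Slc2a5* (7.82 ± 0.73), *G6pc* (6.01 ± 1.51), *Lct* (3.94 ± 4.74) and *Slc2a2* (1.47 ± 0.72 CPM per kb), and each overlapped the next. At 30 µg/kg *Slc2a5* (84.9 ± 56.8) and *Slc2a2* (42.0 ± 29.3 CPM per kb) had moved up the order, in ranges that overlapped those of *Treh* and *Khk*. Together the 9 genes took 1.0 ± 0.07% of all counts on genes in vehicle mice and 1.86 ± 0.6% at 30 µg/kg (1.25 to 2.44%, n = 3).

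The same direction was seen in enzymes that continue fructose breakdown and make glucose. Of 13 tested genes of this list, 7 rose and 0 fell at 30 µg/kg, with a median log2 fold change of 0.62. The shares over all genes were 5.42% called as higher and 3.98% as lower. *Pck1*, which starts gluconeogenesis, rose 9.93-fold (adjusted p = 0.00259) and *Fbp1* rose 5.43-fold (adjusted p = 8.66e-05, edgeR). *Tkfc* (2.77-fold), which acts after *Khk*, rose as well, as did *Slc37a4* (2.6-fold), which brings the substrate of *G6pc* into the endoplasmic reticulum, *Glyctk* (1.81-fold) and *Sord* (1.54-fold). *Tkfc* was 184 to 206 CPM in vehicle mice, 194 CPM in mouse 65 and 773 and 638 CPM in mice 67 and 68, the same split between mice as *Khk* and *G6pc*. *Fbp1* was 17.0 CPM in mouse 65, above the vehicle range of 5.33 to 9.02 CPM, and 56.8 and 49.8 CPM in the others. *Pck1* was also called at 3 µg/kg (6.55-fold, adjusted p = 0.0481, edgeR) and varied widely at lower doses. Its levels were 30, 128 and 15.8 CPM at 0.1 µg/kg and 14.8, 133 and 82.7 CPM at 0.3 µg/kg. At 30 µg/kg they were 107, 374 and 268 CPM. Without mouse 65, 7 of 13 were called, beside 14.7% of all genes, and with the index use as a covariate 3 were, beside 2.88%.

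Of 14 other sugar transporters tested, 4 rose and 1 fell at 30 µg/kg, with a median log2 fold change of 0.72. Of all genes tested, 5.42% were called as higher and 3.98% as lower at this dose. *Slc5a4a*, a relative of *Slc5a1*, rose 12.4-fold (log2 change 3.63 ± 0.61 (SE), edgeR, adjusted p = 0.000302) and was also called at 3 µg/kg. It lay at 2.49 to 5.79 CPM in the vehicle group and at 23.6, 66.6 and 49.8 CPM at 30 µg/kg. *Slc2a7* rose 4.13-fold, the urate transporter *Slc2a9* 2.07-fold and *Slc5a11* 1.91-fold. *Slc5a9* fell 1.61-fold.

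Glycolysis and galactose enzymes did not share this direction, with 1 of 21 tested genes higher, 3 lower and a median log2 fold change of 0.03. Over all genes, 5.42% were called as higher and 3.98% as lower at 30 µg/kg. *Hk2*, a hexokinase, was 335 to 544 CPM in vehicle mice and 151, 60.2 and 78.7 CPM at 30 µg/kg, 4.34-fold lower (adjusted p = 9.25e-05, edgeR). All 12 mice at 0.01 to 0.3 µg/kg, at 124 to 285 CPM, also lay below the vehicle mice. *Pfkp*, a phosphofructokinase, fell 1.61-fold, while the galactokinase *Galk1* rose 1.76-fold. Among 19 tested regulators of sugar response and brush border genes, 4 rose and 1 fell, beside the same shares of all genes. The carbohydrate response factor *Mlxipl* rose 1.61-fold (adjusted p = 0.00169) and its target *Txnip* 2.29-fold (adjusted p = 0.01, edgeR), whereas *Arrdc4*, known as another target of the same factor, fell 1.54-fold. *Txnip* was 243.5 to 315.2 CPM in vehicle mice, 298.7 CPM in mouse 65 and 780 and 834 CPM in mice 67 and 68. *Klf9* rose 2.04-fold and *Gnat3*, the taste G protein, rose from 0.48 to 1.56 CPM. Of 13 other brush border genes tested, which are hydrolases apart from the structural gene *Vil1*, 4 rose and 0 fell, again beside 5.42% and 3.98% of all genes. Among the 4 were the peptidases *Ace* (2.01-fold), *Xpnpep2* (1.58-fold) and *Enpep* (1.57-fold). With index use as a covariate, 4 of the other sugar transporters, 2 regulators, 4 glycolysis and galactose enzymes (1 higher and 3 lower) and 0 of these brush border genes were called, beside 2.88% of all genes. With the clock score, 0 genes of these and the fructose and gluconeogenesis list were called, beside 0.0836% of all genes.

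**Figure D4:**
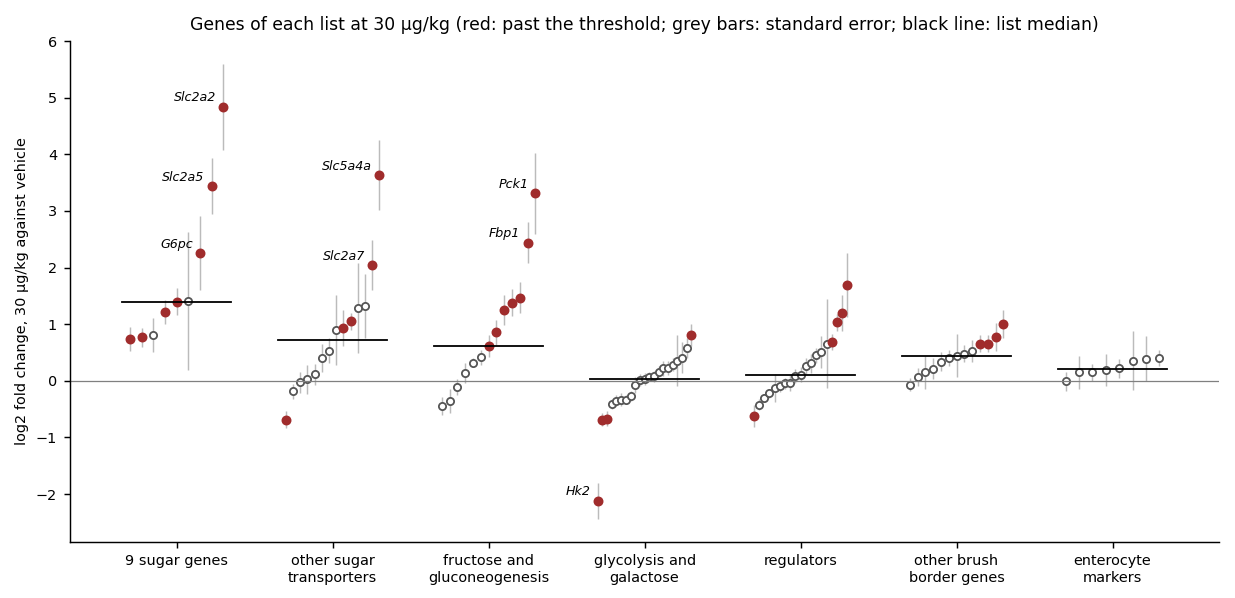
Log2 fold change at 30 µg/kg against vehicle (vertical axis) of the tested genes of each list (horizontal axis), with grey bars for standard errors, red points for changes past the threshold and a black line at the list's median. The 9 sugar genes have a median of 1.4, the fructose and gluconeogenesis list 0.62, glycolysis 0.03 and the 8 enterocyte markers 0.2 with 0 red points.

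For each member, genes are named from the 3 whose log2 CPM followed it most closely over the 27 mice. For *Slc2a2* they were *Glud1* (Pearson's r = 0.95), *Slc5a4a* (0.94) and *Slc5a12* (0.93), and *Slc5a12*, a lactate transporter that rose from 25.9 to 191 CPM on average at 30 µg/kg, was also the nearest to *Sis* (0.93, ahead of *Slc35g1* and *Cdr2*, both at 0.91). For *Slc5a1* they were *Slc13a2* (0.97), the peptide transporter *Slc15a1* (0.96) and *Cobl* (0.95), and *Slc15a1* (0.94), *Gramd1b* (0.93) and *Slc13a2* (0.93) stood nearest to *Mgam*. *Slc2a5* was followed most closely by genes that include *Gpd1* (0.95) and *Trib3* (0.93), *Khk* by *Pdzk1* (0.91), *Elmo2* (0.9) and *Cyp4v3* (0.89), and *Treh* by *Susd2* (0.95). *Lct* had *Fam151a* (0.9), *Igf2* (0.89) and *Tm4sf5* (0.89), and *G6pc* had the lowest likeness, to *Mapk14* (0.86), *Khnyn* (0.82) and *Rab4a* (0.81). These values describe 27 libraries that share dose, index use and clock state, and each pair was picked as the highest of 16741 genes.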

How the data were processed

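Ileal epithelium scrapings from 27 mice (9 groups of 3) were profiled by RNA-Seq. Per the labels and the study's methods, the authors checked reads with FastQC 0.11.3, trimmed them with Trimmomatic 0.33, aligned them to GRCm38 (release 81) with TopHat2 2.1.0 and Bowtie2, and used SAMtools 1.2.0. The submitters' processing notes also list HTSeq 0.6.1 and DESeq. The authors deposited raw counts per Ensembl gene, with no normalization. Between 44.48% and 49.52% of uniquely aligned reads matched no counted feature and 0.61% to 1.02% were ambiguous. These entries were left out of library sizes. Whether counting used strand is not given in the sources used here.

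Counts were joined to GENCODE M21 symbols (45143 of 46078 genes matched) and all 9 members matched the RefSeq promoter table. They were filtered with filterByExpr (minimum count 10, minimum total 15), scaled by TMM and fitted in edgeR 4.0.16 (R 4.3.3) by quasi-likelihood with 9 groups. Standard errors are the estimate divided by the root of F. Log2 CPM used a prior count of 2. A call needed an adjusted p of at most 0.05 and, except for the trend and the test of any difference, a 1.5-fold change. On simulated counts the fit recovered 99 of 100 genes changed 4-fold and 90 of 100 changed 2-fold, with 9 false calls. The simulation gave each gene the same spread in all groups. It therefore does not cover the wider spread at 30 µg/kg described below. Groups came from the labels. The 27 same-group pairs of libraries differed beyond sampling noise (chi-square per degree of freedom 6.99 to 74.26, where noise alone gives 1). The study housed several mice to a cage, so mice of a group may share one, but the cage of each mouse is not given and the tests treat mice as independent. For each gene, the p-values of the main edgeR fit rest on a spread shared by all 27 mice in 9 groups of 3. They do not measure the spread of the compared mice alone. For *Slc2a5* the highest mouse was 5.2-fold the lowest at 30 µg/kg, against 1.18-fold in vehicle mice. This ratio was larger at 30 µg/kg than in vehicle mice for every member but *Lct*. Counts from fits of the compared mice alone are given below. At 12.26 to 17.14 M counts, the rarest member value was 32 counts in a mouse (*G6pc* at 10 µg/kg), where counting error is not small beside the spread between mice.

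The members and gene lists were chosen with earlier results of these data known. Named genes were all members, list genes past the threshold at 30 µg/kg, the 3 genes nearest to each member by correlation, and marker, clock or AhR genes beside a result. Single results of some genes under this rule are not reported here, and these genes stay in the counts and medians. Alternatives were DESeq2 1.42.0, other scalings and filters, no fold limit, index use or clock score as covariates, the 6 mice alone, subsets of mice and leaving out each mouse. The subsets without mice 14, 41 and 65 and the scale relative to enterocyte markers were chosen after seeing the data.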

Additional observations from a re-analysis of the deposited data

How the results depend on the processing

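The counts of called members moved with the fit at each dose from 1 µg/kg up. The main counts at 3 and 10 µg/kg were 1 and 1. At 3 µg/kg the count was 2 with upper-quartile scaling, library size only or at least 10 counts in every mouse, 4 with no filter on low counts or with DESeq2, 5 with only the 6 mice compared, and 0 with index use or clock score as a covariate. At 10 µg/kg it was 4 with no filter, 3 with DESeq2, 5 with the 6 mice alone and 0 with either covariate. At 1 µg/kg (main count 0) it was 1 with no filter, with the 6 mice alone (*G6pc*) or with DESeq2. At 30 µg/kg (main count 7) it was 3 with index use, 0 with the clock score and 3 with the 6 mice alone. For 30 against 3 µg/kg (main count 1) the 6 mice alone gave 0. The trend (main count 5) gave 2 with index use, 0 in the first use, with or without mice 14 and 41, 1 in the second use and 8 there without mouse 65. Leaving out 1 mouse at a time gave 0 to 0 members at 3 µg/kg, 0 to 1 at 10 µg/kg, 4 to 8 at 30 µg/kg (8 without mouse 65, 4 without mouse 67), 0 to 7 for 30 against 3 µg/kg (7 without mouse 65) and 5 to 7 for the trend. At 0.01 to 0.3 µg/kg no fit called a member.

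Signs turned mainly with the clock score as a covariate, with log2 fold changes of -0.026 (*Slc5a1*) and -0.56 (*Slc2a5*) at 1 µg/kg, -0.28 (*Slc2a2*), -0.46 (*Slc2a5*), -0.12 (*Sis*) and -0.021 (*Mgam*) at 3 µg/kg, -0.78 (*Slc2a2*), -0.013 (*Slc5a1*), -0.73 (*Slc2a5*), -0.27 (*Sis*) and 0.29 (*G6pc*) at 10 µg/kg, and -1.01 (*Lct*) at 30 µg/kg. The trend slope of *G6pc* was 0.91 in the second index use and 1.08 there without mouse 65. In the first use without mice 14 and 41 the slopes were -0.002 (*Mgam*), -0.034 (*Treh*) and 0.021 (*G6pc*). For 30 against 3 µg/kg the log2 fold change of *Lct* ranged from -0.97 to 0.95 with 1 mouse left out, and was -0.11 without mouse 50 and -0.97 without mouse 67. With the longest transcript as length, vehicle levels were 26.8 (*Khk*), 401 (*Sis*) and 902 CPM per kb (*Mgam*). The cause of these differences was not tested, beyond the fewer mice or genes that some fits held. Among the values of single members under an alternative, 400 kept direction and side of the threshold, 59 lost and 35 gained a call. No paired analysis was possible because each library came from a different mouse and the labels pair no mice between groups.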
